A study of Homo sapiens with 6 samples.

Results

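The genes of purine and pyrimidine nucleotide metabolism were followed, in cells labelled as an osteosarcoma line, after knockdown of FUBP1. They are 36 protein-coding genes, chosen by name as the enzymes that make, interconvert, salvage and police nucleotides, out of 58735 genes in the table and 19951 that are protein-coding. The cells of every library are labelled MG63, the name of an established human osteosarcoma line. Several markers of the osteoblast lineage were absent or nearly so, as given below, so the name rests on the label alone. In 3 samples the cells were transfected with small interfering RNA against FUBP1 (siFUBP1), and in 3 samples with a control (siMock). RNA was taken 48 h after transfection, and poly-A RNA was sequenced. The labels number the samples but do not say that they came from separate cultures, so p-values measure only the spread between these samples, which may be technical.

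Nucleotides are built from phosphoribosyl pyrophosphate (PRPP), amino acids, carbon dioxide and one-carbon units carried by folate. The purine route ends in IMP, from which AMP and GMP are made, and the pyrimidine route ends in UMP, from which UTP and CTP follow. Salvage enzymes recover free bases and nucleosides, ribonucleotide reductase turns ribonucleotides into the building blocks of DNA, and several of the enzymes for DNA precursors are known to be most abundant in S phase. Tumour cells lean on both routes, and many cytotoxic drugs act on these enzymes. FUBP1 itself is a protein that binds nucleic acids and is known for its binding to the far upstream element of MYC.

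RefSeq (GRCh38.p14) gave promoter windows, from 250 bases before to 50 bases from the transcription start, for 34 of the 36 members. ADSL and IMPDH2 are named only. The windows below belong to the members with the largest changes that had one, and to ATIC, which holds the E-box letters 2 times. Capitals mark the E2F letters (TTTCCCGC, TTTGGCGC, TTTGCCGC or TTTCGCGC), the E-box CACGTG and the box CCAAT, each searched on both strands; none of these letters, nor TGATGNAA, a form of the ATF4 element, is in the UPP1 window shown. Each of these 6 windows is written from 5′ to 3′ on the strand of its gene, and where RefSeq lists several starts it is the first one listed.
UPP1, chr7:48089004-48089303, plus strand: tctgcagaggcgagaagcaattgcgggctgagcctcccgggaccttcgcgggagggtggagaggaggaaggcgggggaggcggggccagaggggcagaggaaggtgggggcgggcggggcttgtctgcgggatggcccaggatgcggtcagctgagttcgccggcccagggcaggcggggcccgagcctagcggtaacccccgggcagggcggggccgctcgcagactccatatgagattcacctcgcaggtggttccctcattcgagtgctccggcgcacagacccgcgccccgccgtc
RRM2, chr2:10122489-10122788, plus strand: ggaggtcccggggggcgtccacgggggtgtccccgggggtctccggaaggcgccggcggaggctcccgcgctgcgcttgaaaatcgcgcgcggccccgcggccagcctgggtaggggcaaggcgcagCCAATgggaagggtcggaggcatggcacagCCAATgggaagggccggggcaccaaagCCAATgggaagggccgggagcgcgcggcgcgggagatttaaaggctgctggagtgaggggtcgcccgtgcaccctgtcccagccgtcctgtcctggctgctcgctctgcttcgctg
TYMS, chr18:657403-657702, plus strand: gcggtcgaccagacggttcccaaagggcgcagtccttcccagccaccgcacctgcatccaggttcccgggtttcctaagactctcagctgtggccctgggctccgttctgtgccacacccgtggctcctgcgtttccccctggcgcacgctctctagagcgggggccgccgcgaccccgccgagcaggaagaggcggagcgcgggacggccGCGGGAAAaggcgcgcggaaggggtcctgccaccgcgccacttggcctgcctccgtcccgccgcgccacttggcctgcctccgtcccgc
SAMHD1, chr20:36951659-36951958, minus strand: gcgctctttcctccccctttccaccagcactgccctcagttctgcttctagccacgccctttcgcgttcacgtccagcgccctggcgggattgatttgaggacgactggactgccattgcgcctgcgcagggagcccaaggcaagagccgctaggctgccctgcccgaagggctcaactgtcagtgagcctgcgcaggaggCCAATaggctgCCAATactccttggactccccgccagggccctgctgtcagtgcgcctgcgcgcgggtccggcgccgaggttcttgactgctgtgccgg
CDA, chr1:20588847-20589146, plus strand: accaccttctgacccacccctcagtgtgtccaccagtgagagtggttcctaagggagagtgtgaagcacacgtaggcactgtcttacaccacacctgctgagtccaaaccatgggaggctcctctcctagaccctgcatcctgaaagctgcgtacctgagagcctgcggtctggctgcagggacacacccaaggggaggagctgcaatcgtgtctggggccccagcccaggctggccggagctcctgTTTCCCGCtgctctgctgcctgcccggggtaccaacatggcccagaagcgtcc
ATIC, chr2:215311809-215312108, plus strand: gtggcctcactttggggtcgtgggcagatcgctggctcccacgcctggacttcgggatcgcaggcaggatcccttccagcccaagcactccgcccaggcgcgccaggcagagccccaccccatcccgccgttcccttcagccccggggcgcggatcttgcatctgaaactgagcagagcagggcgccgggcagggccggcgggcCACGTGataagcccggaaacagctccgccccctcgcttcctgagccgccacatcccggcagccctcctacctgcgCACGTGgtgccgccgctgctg

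PPAT and PAICS, which catalyse steps of the same purine route, lie head to head, with start sites 137 bases apart at 56435615 and 56435752 of chromosome 4. The PAICS start used here is the second that RefSeq lists, chosen because its window meets that of PPAT, and the one listed first has its window at chr4:56410257-56410556. The stretch that both promoter windows share is shown on the strand of PPAT, with an E-box in capitals.
PPAT and PAICS, chr4:56435566-56435801, minus strand: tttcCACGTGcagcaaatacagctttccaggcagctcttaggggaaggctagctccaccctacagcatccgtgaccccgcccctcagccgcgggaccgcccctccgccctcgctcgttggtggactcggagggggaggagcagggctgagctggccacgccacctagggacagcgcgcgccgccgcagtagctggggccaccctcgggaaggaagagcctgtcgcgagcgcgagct

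Over all listed windows of a gene, the E2F letters stood in 6 of the 34 members (17.6%, namely PRPS2, GART, TYMS, DCK, DUT and CDA) and in 6.61% of 10309 tested protein-coding genes with a window. The E-box stood in 7 members (20.6%, PPAT, PAICS, ATIC, DHODH, DCK, DCTPP1 and NME1) against 12.7% of those genes. PPAT and PAICS count by the same single site in their shared stretch, and PAICS only through its second listed start. CCAAT stood in 11 members (32.4%) against 43.2%, and the ATF4 letters in 0 members (0%) against 2.71%. These are counts of letters in a short window and say nothing of binding.

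The supplement of the study lists 3 siRNAs against FUBP1, and which of them was used for the sequenced libraries is not given in the sources used here. Their guide strands are shown because a guide can also pair with other transcripts through its seed, bases 2 to 8, in capitals.
RNAi#1: uAAACUGAaugcgaacacc
RNAi#2: uAAGAGGUuugucagcacc
RNAi#3: uUUCUUCUaugaguugccg
All 36 members had an annotated 3′ UTR. A match to the seed of RNAi#1 stood in the 3′ UTR of 7 members (PPAT, GMPS, CTPS1, CTPS2, RRM1, RRM2 and DUT) and in 19.8% of 12584 genes. For RNAi#2 it stood in 3 members (GMPS, DCK and SAMHD1) and in 12.2% of genes, and for RNAi#3 in 4 members (GMPS, UMPS, RRM2 and CMPK1) and in 19.3%. Pairing of a guide with these members was not tested.

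Total counts lay between 16309900 and 17484313 per sample, and FUBP1 fell to 18.4% of its siMock level (log2 fold change -2.44, SE 0.09, adjusted p = 1.9e-17, edgeR quasi-likelihood test with Benjamini-Hochberg adjustment). The labelled lineage was checked against its markers. Of 6 mesenchymal and osteoblast markers, COL1A2 had 0 reads in every library, SPARC 0 to 5 and ALPL 0 to 1. RUNX2 had 6 to 8 reads in siMock and 39 to 97 in siFUBP1, whereas VIM (2312 to 3731) and COL1A1 (769 to 2000) were counted throughout. Of 8 epithelial, blood and endothelial markers the most counted was EPCAM with 59 to 83 reads, and CD3E had 0. Defining markers of the osteoblast lineage were thus absent or nearly so, and the cells are called by their label only.

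Of the 36 members, all of which passed the expression filter, 7 were higher in siFUBP1 at an adjusted p below 0.05, 12 were lower and 17 were not called. Among all 16116 genes tested, 30.1% were called higher and 30.1% lower, so a call by itself was common in these data. The share of members called was 19.4% higher and 33.3% lower, and the median log2 fold change of the members was 0.0005 beside 0.002 for all genes. A log2 fold change beyond 1 was reached by 4 members, UPP1 and IMPDH2 upwards and SAMHD1 and ADSL downwards, in a table where 17.3% of genes did so. The plot of fold changes by role shows where the members moved: salvage enzymes moved both ways, and the enzymes of DNA precursors were lower or not called. Not called were also 3 of 6 purine and 4 of 5 pyrimidine de novo genes, beside 6421 of all 16116 genes tested.

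**Figure D1:**
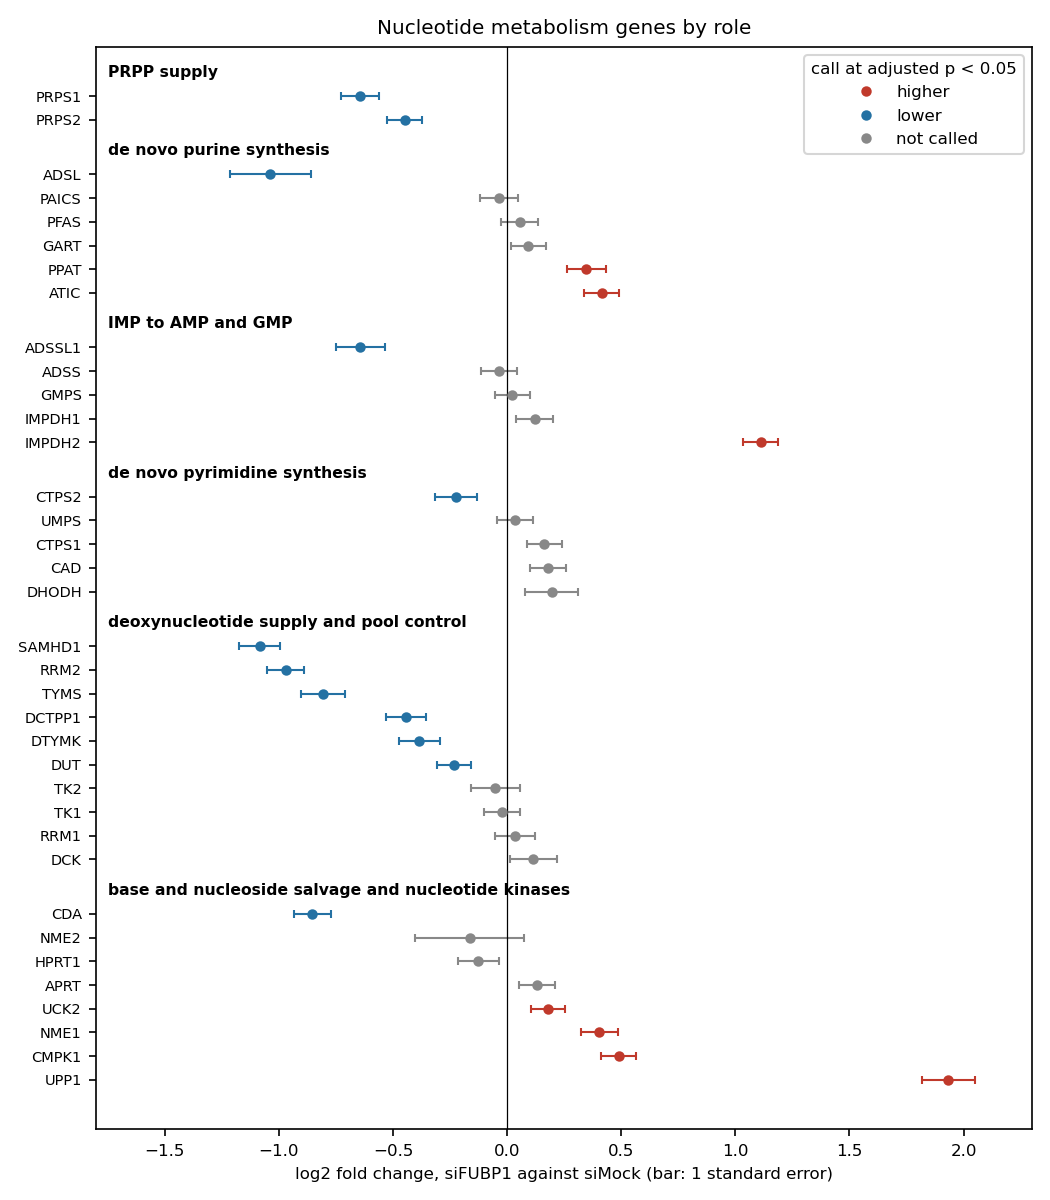
The log2 fold change of siFUBP1 against siMock (horizontal axis) is plotted for each of the 36 members, grouped by role, with bars of 1 standard error and colours for the call at an adjusted p below 0.05 (edgeR). UPP1 stands farthest to the right at 1.93 and SAMHD1 farthest to the left at -1.08, and no enzyme of deoxynucleotide supply was called higher without the GC and length correction.

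The largest change of a member was in salvage. UPP1 (ENSG00000183696, chr7:48088628-48108733, GRCh38), the uridine phosphorylase that frees uracil and ribose phosphate from uridine, rose from 77.3, 80.4 and 66.2 CPM (counts scaled to library size by TMM) in the siMock samples to 294, 331 and 230 CPM in the siFUBP1 samples. The groups lay far apart, although the siFUBP1 samples spread more widely than the controls. The log2 fold change was 1.93 (SE 0.12, adjusted p = 3.2e-10), which is 3.82-fold. CDA (ENSG00000158825, chr1:20588948-20618908), the cytidine deaminase that turns cytidine into uridine and also inactivates cytidine drugs, was at 128, 138 and 119 CPM in siMock and at 69.7, 73.9 and 69.3 CPM in siFUBP1. Every knockdown sample was below every control, and CDA fell to 55.3% of its control level (log2 fold change -0.85, SE 0.08, adjusted p = 9.04e-10). The enzyme that makes uridine from cytidine was thus lower and the one that splits uridine higher.

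Among the members grouped here with salvage, 3 kinases were called higher. NME1, a nucleoside diphosphate kinase, was at 65.6, 67.3 and 69.5 CPM in siMock and at 97.0, 83.5 and 87.3 CPM in siFUBP1, with no overlap between groups (log2 fold change 0.40, SE 0.08, adjusted p = 0.000119). CMPK1, which phosphorylates UMP and CMP, rose by a log2 fold change of 0.49 (SE 0.08, adjusted p = 4.29e-06). UCK2, a uridine and cytidine kinase, was higher by 0.18 (SE 0.07, adjusted p = 0.0377), a call that stood in 12 of 18 alternative analyses and was lost when any of 5 of the 6 samples was left out (values from 0.16 to 0.18, adjusted p up to 0.139). NME2, the neighbour of NME1, was at 4.47, 3.41 and 2.75 CPM in siMock and at 2.43, 3.92 and 3.15 CPM in siFUBP1. Its groups overlapped, and the log2 fold change of -0.16 (SE 0.24) did not pass (adjusted p = 0.576). The reading of NME2 is uncertain, because all 456 of its coding bases and 416 of the 550 of NME1 are shared with the readthrough gene NME1-NME2, which itself had 0 to 6 counts, and how shared reads were counted is not stated. The purine base salvage enzymes APRT (log2 fold change 0.13, adjusted p = 0.159) and HPRT1 (-0.13, adjusted p = 0.229) were not called, although HPRT1 was called lower without siFUBP1 sample 3 (-0.23, adjusted p = 0.0356). Of these 8 salvage enzymes and kinases 4 were higher and 1 lower, with a median log2 fold change of 0.15. In comparison, 30.1% of all genes tested were called higher and 30.1% lower. The call of UCK2, 1 of the 4, stood in only 12 of 18 alternative analyses. Whether these 8 genes differ from all genes was not tested.

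**Figure D2:**
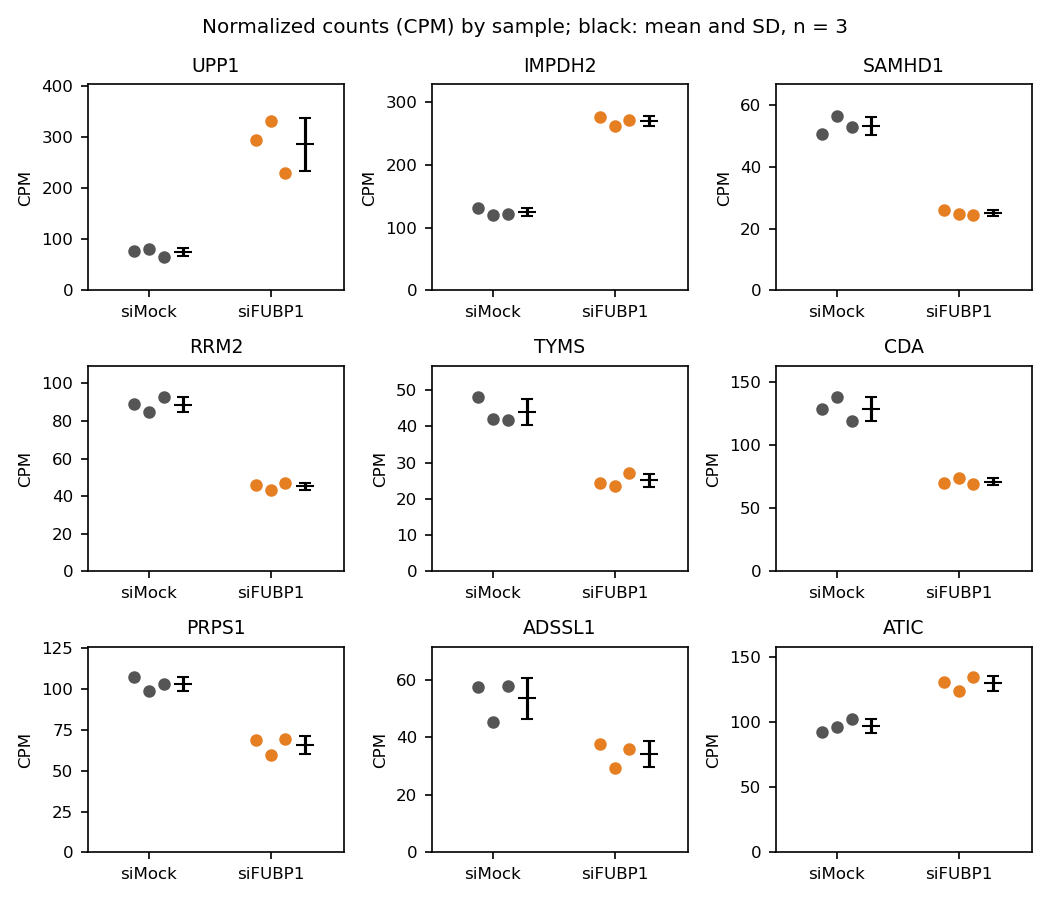
CPM (vertical axes, each from 0) of 9 called members in the 3 siMock and the 3 siFUBP1 samples, with the mean and SD in black. In each panel the groups do not overlap; UPP1 in the knockdown spreads from 230 to 331 CPM.

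Supply of DNA precursors was the role with the largest number of lower members. Of 10 genes 0 were higher by edgeR (also 0 at an unadjusted p below 0.05, with DESeq2 and with limma). Among them 6 (60.0%) were lower, beside 30.1% of all genes tested, and 4 were not called. The median log2 fold change was -0.31. By share PRPP supply stood above this role, with 2 of 2 genes lower. RRM2 (ENSG00000171848, chr2:10120698-10131419), the regulatory subunit of ribonucleotide reductase that is known to be made in S phase, was at 89.1, 84.5 and 92.5 CPM in siMock and at 45.7, 43.1 and 47.0 CPM in siFUBP1. The samples of each group lay close together, and RRM2 fell to 51.0% (log2 fold change -0.97, SE 0.08, adjusted p = 1.33e-10). RRM1, the catalytic subunit, was at 491, 475 and 580 CPM in siMock and at 543, 485 and 556 CPM in siFUBP1. These ranges overlapped, and RRM1 was not called (log2 fold change 0.03, SE 0.09, adjusted p = 0.747). Part of RRM2 is annotated again under another name: 1077 of its 1372 coding bases are shared with AC007240.1, which had 11 to 22 counts. How shared reads were counted is not stated, so the level of RRM2 and its ratios to RRM1 and RRM2B below are uncertain.

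TYMS, the thymidylate synthase that makes dTMP from dUMP and is the target of fluorouracil, was at 48.1, 41.9 and 41.7 CPM in siMock and at 24.4, 23.6 and 27.2 CPM in siFUBP1. It fell to 57.1% of the control level, well beyond the spread of either group (log2 fold change -0.81, SE 0.10, adjusted p = 5.85e-08). The library kit does not mark strand, and 39.2% of the exonic bases of TYMS lie opposite ENOSF1, a gene with 1673 to 1950 counts, so reads of both genes cannot be fully told apart. SAMHD1 (ENSG00000101347, chr20:36889773-36951901), which works the other way by degrading deoxynucleoside triphosphates, was at 50.7, 56.4 and 52.8 CPM in siMock and at 26.2, 24.8 and 24.5 CPM in siFUBP1. SAMHD1 fell to 47.2%, the lowest value of any member in this fit (log2 fold change -1.08, SE 0.09, adjusted p = 9.98e-11). Genes that build deoxynucleotides and a gene that destroys them were therefore both lower.

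DCTPP1 (log2 fold change -0.44, adjusted p = 0.000116) and DUT (-0.23, adjusted p = 0.0101), which hydrolyse dCTP and dUTP, were lower as well. For DCTPP1, 42.1% of the exonic bases lie opposite ZNF771 (91 to 181 counts), and the DUT call was lost when only total counts were used for scaling (-0.14, adjusted p = 0.129). DTYMK, the thymidylate kinase that follows both TYMS and thymidine kinase, was lower by 0.38 on the log2 scale (SE 0.09, adjusted p = 0.000656). The deoxynucleoside kinases were not called. TK1, the cytosolic thymidine kinase of dividing cells, was at 123, 111 and 103 CPM in siMock and at 113, 111 and 108 CPM in siFUBP1, and TK2, its mitochondrial counterpart, was at 22.7, 21.3 and 25.6 CPM and at 23.5, 23.4 and 20.2 CPM. Both overlapped between groups and were not called (log2 fold changes -0.02, adjusted p = 0.827, and -0.05, adjusted p = 0.7). DCK, the deoxycytidine kinase, gave 0.12 (adjusted p = 0.35).

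Both genes for PRPP synthetase, which supplies the activated ribose for every route, were lower. PRPS1 was at 107, 98.5 and 103 CPM in siMock and at 68.9, 59.4 and 69.3 CPM in siFUBP1 (log2 fold change -0.65, SE 0.08, adjusted p = 1.84e-07). PRPS2 was at 103, 99.1 and 100 CPM in siMock and at 70.7, 72.1 and 79.1 CPM in siFUBP1 (log2 fold change -0.45, SE 0.08, adjusted p = 1.92e-05). Neither gene overlapped between the groups, and both lie on chromosome X.

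The 6 genes of de novo purine synthesis did not move together: 2 (33.3%) were higher, 1 (16.7%) was lower and 3 were not called. Among all genes tested 30.1% were higher and 30.1% lower. The median log2 fold change of these 6 genes was 0.07. ATIC, which carries out the final pair of steps to IMP, was higher by a log2 fold change of 0.42 (SE 0.08, adjusted p = 4.37e-05), and PPAT, the amidotransferase that commits PRPP to purines, by 0.35 (SE 0.08, adjusted p = 0.000923). The PPAT call was lost after a correction for GC content and length (0.14, adjusted p = 0.0862). PAICS, head to head with PPAT on the stretch printed above, did not pass (-0.03, SE 0.08, adjusted p = 0.744), nor did GART (0.09, adjusted p = 0.315) or PFAS (0.06, adjusted p = 0.579). ADSL (ENSG00000239900, chr22:40346500-40390463), adenylosuccinate lyase, which acts both on the way to IMP and from IMP to AMP, was at 7.11, 7.71 and 7.11 CPM in siMock and at 3.37, 3.86 and 3.44 CPM in siFUBP1. The groups were clearly apart (log2 fold change -1.04, SE 0.18, adjusted p = 1.34e-05), but the gene held only 57 to 131 reads per library. The value is uncertain, since 1306 of its 1899 coding bases are shared with the readthrough gene AL022238.4 (0 to 7 counts).

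At the branch after IMP the guanine arm and the adenine arm differed in their isozymes. IMPDH2 (ENSG00000178035, chr3:49024325-49029408), the inosine monophosphate dehydrogenase that limits GMP synthesis in proliferating cells, rose from 132, 121 and 122 CPM in siMock to 277, 262 and 271 CPM in siFUBP1. The increase was uniform across the 3 samples and came to 2.16-fold (log2 fold change 1.11, SE 0.08, adjusted p = 2.34e-12). IMPDH1, the other form, was at 104, 99.4 and 86.5 CPM and at 103, 105 and 108 CPM, with overlap (log2 fold change 0.12, SE 0.08, adjusted p = 0.201). GMPS, the next enzyme towards GMP, was not called (0.02, adjusted p = 0.808).

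On the adenine arm ADSSL1, the adenylosuccinate synthase known from muscle, was at 57.6, 45.3 and 57.8 CPM in siMock and at 37.8, 29.3 and 35.9 CPM in siFUBP1. It was lower beyond the spread of the samples (log2 fold change -0.64, SE 0.11, adjusted p = 1.23e-05). ADSS, the widely expressed form, was at 73.7, 79.3 and 83.5 CPM and at 77.2, 74.7 and 78.9 CPM, which overlapped (log2 fold change -0.03, SE 0.08, adjusted p = 0.726).

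De novo pyrimidine synthesis had 0 of 5 genes higher by edgeR (2 at an unadjusted p below 0.05, 0 with DESeq2 and with limma) and 1 lower, with log2 fold changes from -0.22 to 0.20 and a median of 0.16. Across all genes tested, 30.1% were called higher and 30.1% lower. Beside these shares, 5 genes are too few to read the counts as a result about the route. CAD, the multifunctional enzyme that begins the route, gave a log2 fold change of 0.18 (SE 0.08) and missed the threshold at an adjusted p of 0.0519; it passed in 9 of 18 alternative analyses, among them those without siMock sample 2 (0.23, adjusted p = 0.0407) and without siFUBP1 sample 2 (0.23, adjusted p = 0.0278). DHODH, the mitochondrial step (0.20, adjusted p = 0.151), and UMPS, which completes UMP (0.04, adjusted p = 0.715), were not called, but DHODH passed in 4 of 18 alternative analyses, including that without siFUBP1 sample 1 (0.30, adjusted p = 0.0479). CTPS1, a CTP synthase, was at 112, 116 and 116 CPM in siMock and at 120, 129 and 137 CPM in siFUBP1, above every control but not called (log2 fold change 0.16, SE 0.08, adjusted p = 0.0675). Without siFUBP1 sample 1 it was called (0.22, adjusted p = 0.0349). CTPS2 was at 41.7, 49.5 and 49.7 CPM and at 41.5, 40.6 and 38.5 CPM (log2 fold change -0.22, SE 0.09, adjusted p = 0.0367). The CTPS2 groups nearly touched, and its call stood in only 6 of 18 alternative analyses; it was lost without siMock sample 2 (-0.18, adjusted p = 0.155), without siMock sample 3 (-0.19, adjusted p = 0.106) and without any siFUBP1 sample (adjusted p from 0.0699 to 0.111).

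Because several steps have more than 1 form or subunit, their ratio was taken within each sample from FPKM, the authors' length-scaled values, which does not depend on scaling between samples. IMPDH2 to IMPDH1 went from a geometric mean ratio of 1.71 in siMock to 3.39 in siFUBP1, a log2 difference of 0.99. RRM1 to RRM2 went from 7.38 to 14.9 (log2 difference 1.01). RRM2B, the p53-inducible small subunit, was at 21.8, 23.8 and 26.5 CPM in siMock and at 31.1, 30.0 and 29.8 CPM in siFUBP1 (log2 fold change 0.33, SE 0.10, adjusted p = 0.00505, lost with the GC and length correction at 0.20, adjusted p = 0.0539). Its rise was opposite to that of RRM2, and RRM2 to RRM2B went from 3.86 to 1.56 (log2 difference -1.31). ADSS to ADSSL1 went from 2.33 to 3.55, CTPS1 to CTPS2 from 1.17 to 1.53, and PRPS1 to PRPS2 from 1.07 to 0.935. For these 6 pairs no siFUBP1 sample overlapped a siMock sample. How often pairs of other genes separate in this way was not computed. Among all genes tested, 30.1% were called higher and 30.1% lower, so such separation may be common. The two-sided exact permutation test gave p = 0.1 for each, the smallest that 3 against 3 can give, and 0.1333 after Benjamini-Hochberg adjustment over the 8 pairs. TK1 to TK2 was 18.7 and 19.1 (exact permutation p = 0.9) and NME1 to NME2 14.9 and 22.0 (exact permutation p = 0.2), both with overlap.

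**Figure D3:**
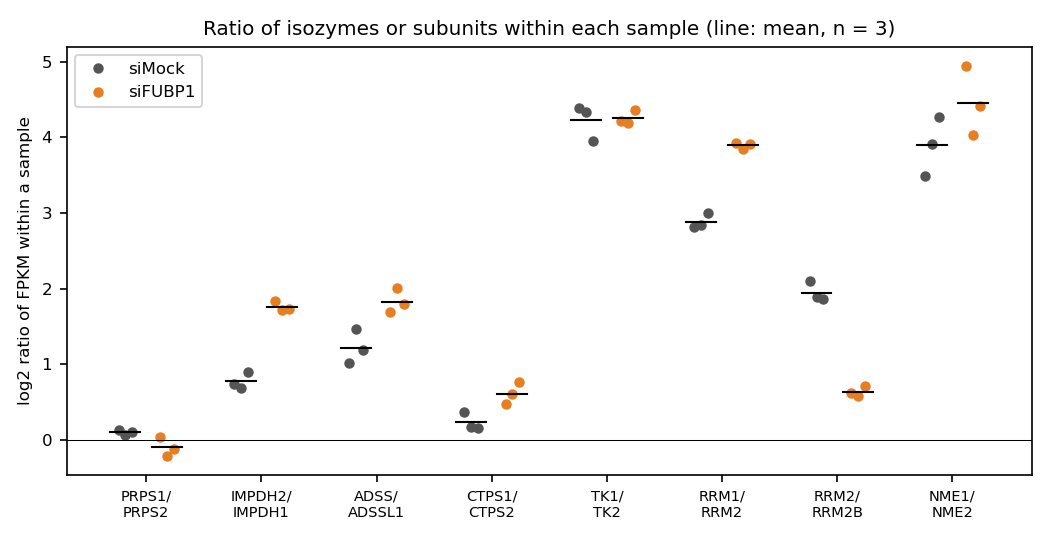
The log2 ratio of FPKM of each pair (vertical axis) within every sample, siMock in grey and siFUBP1 in orange, with a line at the mean of 3. The groups are apart for 6 pairs and widest for RRM2/RRM2B, from a mean of 1.95 to 0.64, and overlap for TK1/TK2 and NME1/NME2.

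Further genes of the pathway were read from lists by role. Of 22 tested genes among 25 other salvage enzymes and kinases, 8 (36.4%) were higher and 6 (27.3%) lower. These shares lay near the 30.1% and 30.1% of all genes tested. The median log2 fold change was 0.20. PNP, the purine nucleoside phosphorylase, was at 111, 117 and 119 CPM in siMock and at 17.9, 18.6 and 18.9 CPM in siFUBP1, or 16.0% of the control level (log2 fold change -2.64, SE 0.09, adjusted p = 3.45e-18). TYMP, the thymidine phosphorylase, was at 20.2, 18.1 and 15.8 CPM and at 8.59, 9.11 and 6.82 CPM (-1.14, SE 0.14, adjusted p = 8.39e-08). Both nucleoside phosphorylases thus fell where UPP1 rose. DGUOK, the mitochondrial deoxyguanosine kinase, rose (log2 fold change 1.09, adjusted p = 1.4e-09), and NME3, another nucleoside diphosphate kinase, fell (-1.03, adjusted p = 4.32e-08).

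Breakdown and sanitation enzymes gave 10 higher and 3 lower of 23 tested out of 30, with a median log2 fold change of 0.10. These counts stand beside 30.1% called higher and 30.1% called lower among all genes tested. Whether the list differs from all genes was not tested. NT5E, the surface 5′-nucleotidase that makes adenosine, rose by a log2 fold change of 1.11 (adjusted p = 7.89e-07), GMPR2, which returns GMP to IMP, by 0.89 (adjusted p = 8.76e-10), and DPYD, which degrades uracil and thymine, by 0.53 (adjusted p = 0.000159). XDH, xanthine dehydrogenase, fell (-0.59, adjusted p = 2.69e-05). Of 7 nucleoside transporters 4 were tested, and 0 were higher by edgeR (0 also at an unadjusted p below 0.05, with DESeq2 and with limma). Lower were 3 (75.0%), SLC29A3 (-1.01, adjusted p = 4.07e-09) and SLC29A2 (-0.82, adjusted p = 1.63e-08) among them. Beside these few genes, 30.1% of all genes tested were called higher and 30.1% lower. The median log2 fold change of the 4 tested transporters was -0.91.

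Folate enzymes, which feed carbon into purines and thymidylate, were divided: 5 (29.4%) were higher and 7 (41.2%) lower of 17 tested out of 20. Among all genes tested 30.1% were higher and 30.1% lower. The median log2 fold change of the folate genes was -0.18. The genes named here, which all rose, are known as mitochondrial enzymes. ALDH1L2, mitochondrial 10-formyltetrahydrofolate dehydrogenase, was at 11.0, 8.47 and 10.2 CPM in siMock and at 104, 118 and 88.3 CPM in siFUBP1 (log2 fold change 3.38, SE 0.12, adjusted p = 2.3e-17). MTHFD2 went from 134, 124 and 141 CPM to 375, 430 and 358 CPM (1.54, SE 0.08, adjusted p = 2.9e-14). No sample of either group came near the other for these 2 genes. MTHFD1L (0.93, adjusted p = 1.23e-09) and MTHFD2L (0.80, adjusted p = 4.04e-06) were higher as well.

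Among 22 genes of S phase and proliferation, 17 (77.3%) were lower and 2 (9.09%) higher, beside 30.1% and 30.1% of all genes tested. The median log2 fold change was -0.70, so most of these genes moved in the direction of RRM2 and TYMS. Their part in the fall of RRM2 and TYMS was not tested, and fewer cells in S phase cannot be told apart from less RNA per cell. CCNE1 and CCNE2, cyclins of S phase entry, fell by 1.70 (adjusted p = 3.03e-13) and 1.62 (adjusted p = 4.35e-10) on the log2 scale. CDC6, which loads the replicative helicase, gave -1.02 (adjusted p = 3.13e-11) and MCM4, a subunit of it, -0.91 (adjusted p = 5.02e-10). Against them CDC45 (0.47, adjusted p = 6.88e-05, edgeR) and RFC4 (0.35, adjusted p = 0.000876, edgeR) were higher. CDK1 (0.0007), CCNA2 (0.07) and CDT1 (-0.17) were not called.

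Of 10 tested transcription factors known to act on nucleotide genes, 4 (40.0%) were higher and 4 (40.0%) lower, beside 30.1% and 30.1% of all genes tested. Their median log2 fold change was 0.03. MYC, whose targets include many nucleotide enzymes, was at 85.1, 76.8 and 75.3 CPM in siMock and at 188, 229 and 184 CPM in siFUBP1 (log2 fold change 1.34, SE 0.09, adjusted p = 1.05e-12). ATF4, a factor of the amino acid response that is known to act on MTHFD2, went from 188, 161 and 172 CPM to 384, 416 and 388 CPM (1.19, SE 0.08, adjusted p = 1.65e-12). E2F1, a factor of S phase genes, was at 103, 100 and 97.9 CPM and at 58.9, 69.9 and 61.5 CPM (-0.66, SE 0.08, adjusted p = 1.18e-07), and E2F2 fell too (-0.85, adjusted p = 1.42e-08). The groups did not overlap for any of these genes. The E2F letters of the promoter windows stood in 4 of the 11 lower members with a window and in 0 of the 6 higher ones, and the E-box, the kind of site MYC binds, in 1 of the 11 and in 3 of the 6. Over all tested protein-coding genes with a window, the E2F letters stood in 6.61% and the E-box in 12.7%. Shares among all genes called higher or lower were not computed, and the called members IMPDH2 and ADSL had no window. These are descriptions over few genes, without a test, and do not show that the letters follow the direction.

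**Figure D4:**
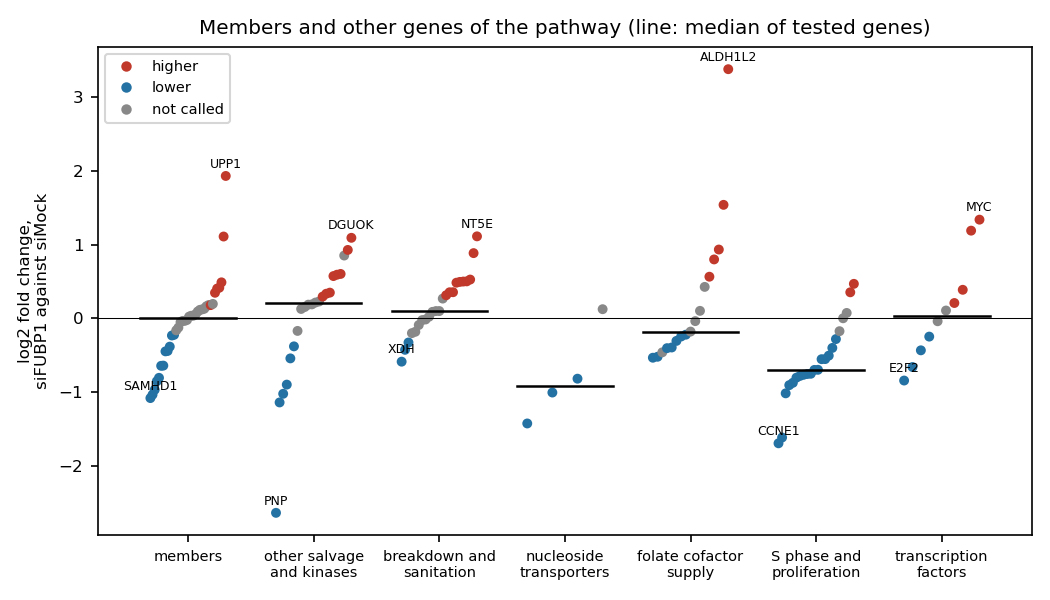
The log2 fold change (vertical axis) of each tested gene among the members and the 6 further lists, coloured by the call at an adjusted p below 0.05, with a line at the median of each list. The line lies at -0.70 for S phase genes and at -0.91 for the 4 tested transporters, and PNP at -2.64 and ALDH1L2 at 3.38 are the extremes.

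Several calls of small changes depended on the treatment of GC content. With offsets for GC content and for length of transcripts, 12 members (33.3%) were called higher and 14 (38.9%) lower instead of 7 and 12, beside 31.0% and 30.9% of all genes, and RRM2 (-1.04) joined the genes with a log2 fold change beyond 1. CAD (0.45, adjusted p = 1.38e-06), IMPDH1 (0.34, adjusted p = 3.2e-05), APRT (0.32, adjusted p = 0.000131), PFAS (0.28, adjusted p = 0.000923), DHODH (0.27, adjusted p = 0.037) and TK1 (0.14, adjusted p = 0.0403) were then called higher. HPRT1 (-0.38, adjusted p = 5.74e-05) and ADSS (-0.22, adjusted p = 0.00386) were called lower. The longest transcripts of the 6 genes gained as higher hold 53.1 to 63.6% GC and those of HPRT1 and ADSS 40.6 and 42.0%. The correction moves each gene by a trend on GC content and length fitted to these samples, and its parts were not separated.

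**Figure D5:**
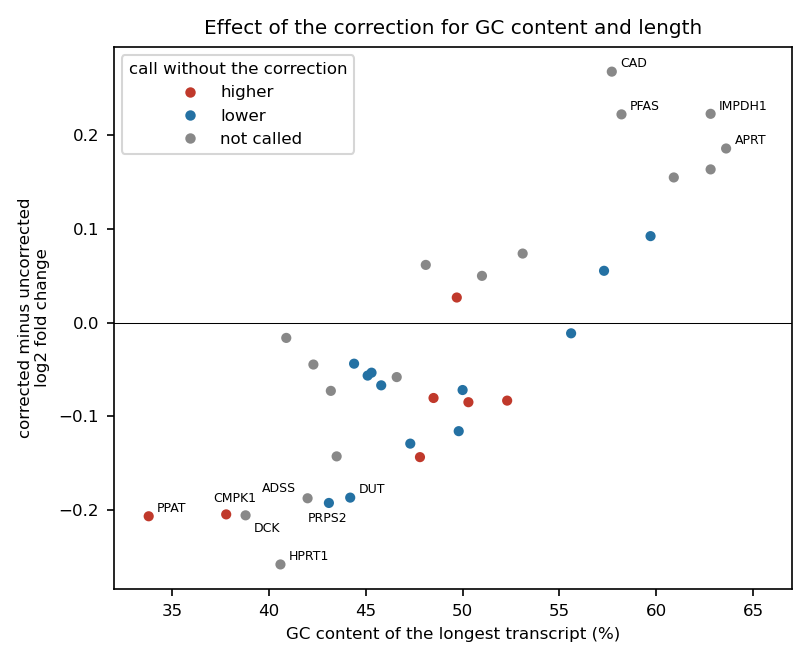
The change that the GC and length correction made to the log2 fold change of each member (vertical axis) against the GC content of its longest transcript (horizontal axis, %), coloured by the call without correction. HPRT1, at 40.6% GC, moved by -0.26 and CAD, at 57.7% GC, by 0.27.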

How the data were processed

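Poly-A RNA of 3 siFUBP1 and 3 siMock samples was measured by RNA-seq. The authors deposited 1 table of 58735 genes with read counts per gene, not normalized, and with FPKM values that the authors computed from the counts. Per the submitters' processing notes, HISAT2 2.0.5, StringTie 1.3.3b, featureCounts 1.5.0-p3 and DESeq2 1.16.1 were used; the strand setting and the handling of shared reads are not given in the sources used here. All 58735 genes have the coordinates of GENCODE 29 (GRCh38). The authors deposited 3 further kinds of column from their own DESeq2 comparison, namely group means of normalized counts (a signal), log2 fold changes and p-values, and none of these was used.

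Counts were compared across all 6 samples with edgeR 4.0.16 in R 4.3.3 (TMM, filterByExpr by group, robust quasi-likelihood F test). P-values were adjusted by Benjamini-Hochberg over the 16116 genes tested, with 0.05 as the threshold of a call. SE is the standard error of the log2 fold change. CPM values are counts scaled to library size by TMM, whose factors lay between 0.9591 and 1.053. Totals of 16309900 to 17484313 counts limit the precision of members with few reads, such as NME2 and ADSL. Every pair of samples of a group differed by more than sampling noise (chi-square per gene of at least 5.96), so none was counted together. DESeq2 1.42.0, limma 3.58.1 on log2(FPKM + 1) and log2(FPKM + 0.1), other scalings and filters, a replicate block, each sample left out, and offsets from a trend on GC content and length (span 0.3, fitted on genes averaging 50 counts or more) were alternatives. The scripts were tested on simulated data. Ratios of isozymes were compared by exact permutation over samples.

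The members, lists and tests were chosen with earlier results of these data known. Every member is named. Values in every sample are given for members called with an absolute log2 fold change of at least 0.5 and for both genes of each isozyme pair. Of each further list the called genes that average 100 counts or more and changed most are named, at most 4, MYC and E2F1 in any case. For S phase and proliferation the genes called higher or not called are named as well.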

Additional observations from a re-analysis of the deposited data

How the results depend on the processing

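Of the 19 called members, 15 kept their direction and their call under all 18 alternatives, and 0 changed sign under any; the exceptions were PPAT, CTPS2, DUT and UCK2. The number of members called higher, 7, became 13 with total counts only, 12 with the GC and length correction and 12 with that correction and the replicate block, and lay between 6 and 8 when 1 sample was left out. Over all genes the share called higher moved as well, from 30.1% to 35.4% with total counts only, where the members stood at 36.1%, and to 31.0% with the GC and length correction, where they stood at 33.3%; with total counts only the median log2 fold change of all genes was 0.0986 and that of the members 0.0974. The number beyond a log2 fold change of 1, 4, became 2 with total counts only and 2 with limma on log2(FPKM + 1). Lower calls among breakdown enzymes went from 3 to 5 with the GC and length correction, and higher calls among transporters from 0 to 1 with it and to 1 with total counts only. The cause of these shifts was not tested.

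Some members that were not called changed sign in their log2 fold change. With upper-quartile scaling PAICS went to 0.009, ADSS to 0.0079 and TK1 to 0.0206; with total counts only PAICS went to 0.0617, ADSS to 0.062, TK1 to 0.0745 and TK2 to 0.0469. With the GC and length correction, alone and then with the block, RRM1 went to -0.1077 and -0.1064, TK1 to 0.1411 and 0.1407, and DCK to -0.0904 and -0.0918. TK1 went to 0.0032 with protein-coding genes only. When 1 sample was left out, PAICS ranged from -0.0973 to 0.0575, ADSS from -0.0876 to 0.0024, RRM1 from -0.0193 to 0.1235, TK1 from -0.0853 to 0.0394, TK2 from -0.1077 to 0.0202 and NME2 from -0.3395 to 0.0296, and the log2 difference of TK1/TK2 from -0.1014 to 0.1126.

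Same-numbered samples correlated at 0.0282, 0.0478 and 0.238 in their deviations from the group means, and not every sample correlated best with its own number, so the numbers were not taken to pair them. With the replicate number as a block, 9 members were called higher and 12 lower (5013 and 5001 of all genes); CAD (0.18, adjusted p = 0.0278, edgeR) and CTPS1 (0.16, adjusted p = 0.0329, edgeR) were added.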
